A study of Homo sapiens with 15 samples.

Results

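The genes described here are 10 transcripts that serve as a readout of signalling through the kinase ERK: the dual-specificity phosphatases DUSP1, DUSP4, DUSP5, DUSP6 and DUSP7, the Sprouty genes SPRY1, SPRY2 and SPRY4, the Sprouty-related gene SPRED1, and the transcription factor ETV4. They were chosen by symbol from the deposited expression table, which lists 33158 genes, and each of the 10 had a single entry there. The study profiled RNA from 3 triple negative breast cancer lines, SUM149PT, HCC1937 and SUM159PT, labelled SUM149, HCC1937 and SUM159. SUM149PT and HCC1937 were sorted into a fraction with the surface profile CD44+CD24-/low, labelled cancer stem cells (CSC below), and the rest, labelled non-cancer stem cells (non-CSC below), while SUM159PT was sequenced unsorted and carries the label cancer stem cells. Each of the 5 groups has 3 libraries, 15 in all, and no group was treated with an agent or carries an added gene. The values are FPKM (fragments scaled to transcript length and to the size of the library), so levels can be set side by side between genes on a per-length scale. Their sequencing depth is unknown, because the table holds no counts.

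ERK is the last kinase of the RAS, RAF and MEK cascade that carries signals from growth factor receptors to the nucleus. Active ERK switches on its own inhibitors: DUSP phosphatases remove the activating phosphates from ERK and related kinases, and Sprouty and SPRED proteins act higher up, between the receptor and RAF. Because these genes are transcribed in response to ERK activity, their transcript levels are widely used as a marker of pathway output in cancers, breast cancers included, although each also answers to other signals.

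Stretches of regulatory sequence are given for 3 of the genes: SPRY2, which was higher in the CSC fraction of both sorted lines, SPRY1, which went opposite ways in them, and DUSP1, the most abundant of the 10. They are from RefSeq (build GRCh38.p14), where 7 of the 10 genes had a promoter entry (DUSP1, DUSP6, DUSP7, SPRY1, SPRY2, SPRY4 and SPRED1). Each is the 250 bases before the transcription start, written 5′ to 3′ on the gene's own strand, and none of the 3 overlaps an annotated exon. SPRY2 is read from chr13:80341127-80341376 on the minus strand (its first start), SPRY1 from chr4:123396545-123396794 on the plus strand (its first start), and DUSP1 from chr5:172771196-172771445 on the minus strand. Capitals mark matches to the ETS core CCGGAA, to the full cyclic AMP response element TGACGTCA, to its shorter form TGACGT, or to the AP-1 element TGAGTCA, searched on both strands. The shorter form lies within the full one.
SPRY2: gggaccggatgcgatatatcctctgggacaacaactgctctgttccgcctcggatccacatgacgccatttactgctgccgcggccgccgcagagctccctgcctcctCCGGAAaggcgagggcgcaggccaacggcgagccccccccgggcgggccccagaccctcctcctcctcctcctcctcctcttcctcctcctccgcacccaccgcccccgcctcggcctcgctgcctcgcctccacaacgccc
SPRY1: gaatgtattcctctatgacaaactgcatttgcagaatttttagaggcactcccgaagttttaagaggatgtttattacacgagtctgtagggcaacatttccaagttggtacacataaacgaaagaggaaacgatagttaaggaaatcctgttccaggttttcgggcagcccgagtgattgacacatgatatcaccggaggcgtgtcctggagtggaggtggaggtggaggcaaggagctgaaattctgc
DUSP1: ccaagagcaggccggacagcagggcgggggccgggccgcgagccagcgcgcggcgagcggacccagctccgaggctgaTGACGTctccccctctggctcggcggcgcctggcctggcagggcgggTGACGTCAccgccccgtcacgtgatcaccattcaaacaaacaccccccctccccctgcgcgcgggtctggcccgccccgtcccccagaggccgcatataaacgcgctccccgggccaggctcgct
The SPRY2 stretch holds the ETS core once, 142 bases before the start. In DUSP1 the full response element stands 125 bases before the start and the shorter form occurs again 172 bases before it. The SPRY1 stretch holds none of these letters. RefSeq lists 3 starts for SPRY2 and 2 for SPRY1, and the first of each is printed. The other SPRY2 starts hold no match, whereas the second SPRY1 start, in annotated exons, holds the ETS core once, so the genes do not differ in having it. DUSP6 and SPRY4, also higher in CSC of both lines, have no match to any of these elements in the same window. Neither do DUSP7 and SPRED1. Among the 35116 promoters in the table, 14.5% hold the ETS core in the same window, 1.65% the full response element, 7.10% the shorter form and 4.20% the AP-1 element. These are matches of letters, and binding at them was not measured.

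The SUM159PT libraries stood apart from the other 12 and are treated separately below. Their FPKM values summed to between 634746 and 652082, against 291276 to 366532 in the sorted libraries, and 8534 to 8670 genes exceeded 1 FPKM, against 11249 to 11997. Across the genes tested, the difference between SUM159PT and SUM149PT CSC rose with the GC content of the transcript (Spearman rho 0.593) and fell with its length (rho -0.406); against HCC1937 CSC the values were 0.512 and -0.304. Genes are not independent replicates, so these correlations only describe the libraries. Cell line and preparation cannot be told apart for SUM159PT, since no other line was sequenced unsorted. The fits within a sorted line and the test of the difference between the lines use none of the SUM159PT libraries. Within groups, libraries correlated at 0.9722 to 0.9895, above the highest value between groups, 0.9602.

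The sort could be seen in the transcripts. CD24 averaged 7.74 FPKM in SUM149PT CSC against 139 FPKM in non-CSC, and 23.3 against 150.04 FPKM in HCC1937. CD44 averaged 84.4 against 64.5 FPKM in SUM149PT and 106 against 97.8 FPKM in HCC1937, where the difference did not pass the test. SUM159PT listed CD24 at 0.729 FPKM and CD44 at 28.8 FPKM, the lowest CD44 level of the 5 groups.

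Differences between groups were tested with limma on log2(FPKM + 0.1) over all genes averaging 0.1 FPKM or more, with Benjamini-Hochberg adjustment over all of them, and a gene passed at an adjusted p of at most 0.05. All 10 genes met the minimum in every comparison. The p-values measure only the spread between these libraries, since the labels do not say whether the replicates are separate cultures. In bulk RNA, fewer cells that express a gene and less RNA per cell cannot be told apart. Adding 0.1 FPKM understates fold changes of genes with low levels, chiefly SPRY1 here. The coefficient of variation within a group had a median of 6.15% over the 10 genes and 5 groups and ran from 0.695% for SPRY4 in SUM149PT CSC to 39.4% for SPRY1 in HCC1937 CSC; the highest for any other gene was 17.7%, for SPRED1 in SUM159PT.

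**Figure D1:**
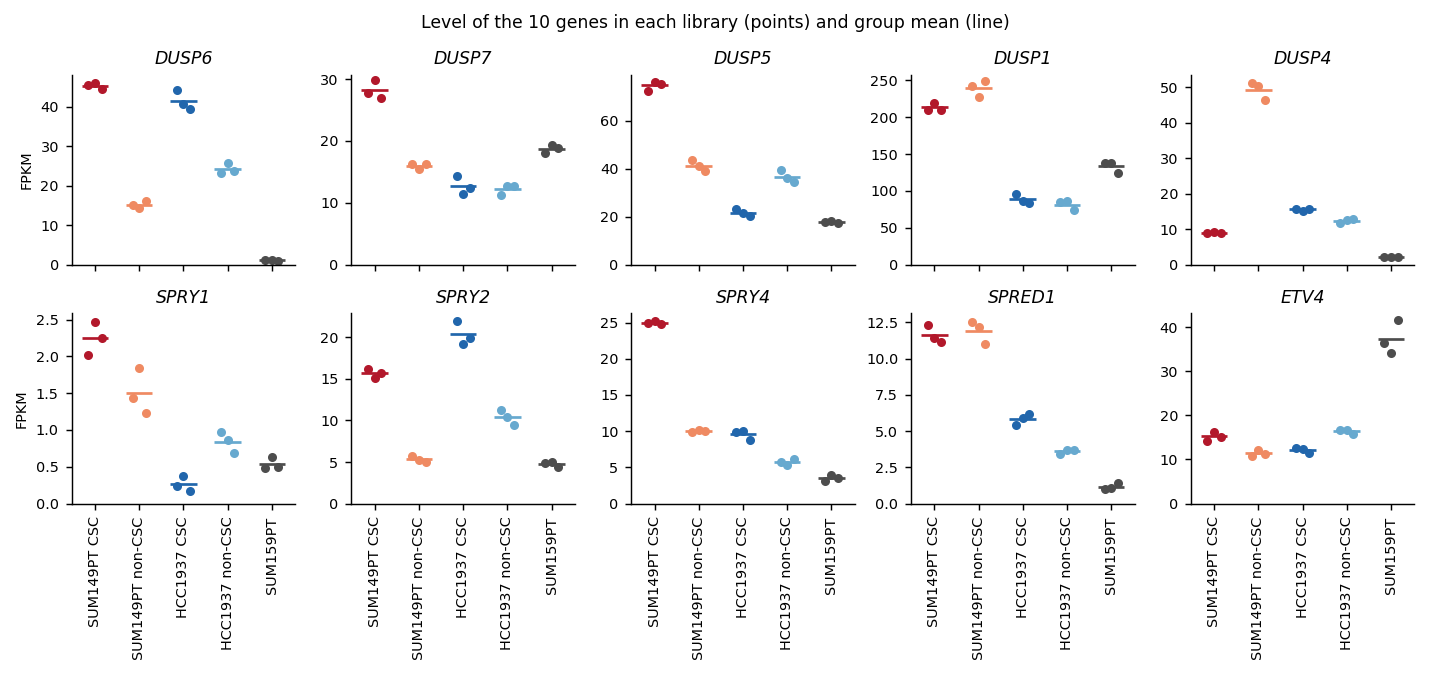
FPKM of each of the 10 genes (vertical axes, each from 0) in the 3 libraries of the 5 groups (points) with the group mean (line). DUSP6 and SPRY2 are high in both CSC groups and low in SUM159PT, whereas ETV4 is highest in SUM159PT at 37.3 FPKM on average.

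DUSP6 encodes a cytoplasmic phosphatase that acts selectively on ERK, and it lies at chr12:89347232-89353271 on the minus strand (GRCh38, GENCODE 29). It measured 45.5, 46.0 and 44.5 FPKM in the SUM149PT CSC libraries and 15.2, 14.5 and 16.1 FPKM in the non-CSC libraries. In HCC1937 it measured 44.2, 40.7 and 39.4 FPKM in CSC and 23.3, 25.7 and 23.7 FPKM in non-CSC. Every CSC library lay above every non-CSC library in both lines, and the CSC levels of the lines were within a few FPKM of each other, while their non-CSC levels were further apart. The CSC mean was 2.97-fold the non-CSC mean in SUM149PT (log2 fold change 1.57 ± 0.06 SE, limma adjusted p 8.37e-06) and 1.71-fold in HCC1937 (0.77 ± 0.08, limma adjusted p 0.00174). Of all genes tested, 93.3% in SUM149PT and 94.0% in HCC1937 had a lower log2 fold change than DUSP6. SUM159PT held 1.27, 1.31 and 1.05 FPKM, the lowest level of any group. An annotated antisense gene shares 1875 exon bases with DUSP6 and is not in the table; whether the counting used strand is not stated, so reads from the pair cannot be told apart.

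DUSP7 encodes the closest relative of DUSP6 in this group, another cytoplasmic ERK phosphatase, at chr3:52048919-52056550 on the minus strand. Its level was 27.8, 29.8 and 26.9 FPKM in SUM149PT CSC and 16.3, 15.5 and 16.3 FPKM in non-CSC, with no overlap. It was 14.3, 11.4 and 12.4 FPKM in HCC1937 CSC and 11.3, 12.7 and 12.7 FPKM in non-CSC, where the fractions overlapped. SUM159PT, at 18.0, 19.3 and 18.8 FPKM, lay between the SUM149PT fractions. The rise in SUM149PT was 1.76-fold (log2 fold change 0.81 ± 0.06 SE, limma adjusted p 0.0001). The HCC1937 value of 0.05 ± 0.11 did not pass (limma adjusted p 0.79) and turned to -0.04 without CSC replicate 1 and to -0.01 without non-CSC replicate 1. Together, DUSP6 and DUSP7 summed to 73.5 ± 2.15 FPKM (SD, n = 3) in SUM149PT CSC and 31.3 ± 1.29 FPKM in non-CSC. The sum was 54.1 ± 3.82 FPKM in HCC1937 CSC, 36.5 ± 1.94 FPKM in non-CSC and 19.9 ± 0.648 FPKM in SUM159PT.

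DUSP5 encodes a nuclear phosphatase with ERK as its target, induced by ERK itself, at chr10:110497838-110511544 on the plus strand. SUM149PT CSC libraries held 72.7, 76.4 and 75.2 FPKM and non-CSC libraries 43.6, 41.0 and 39.2 FPKM. HCC1937 CSC libraries held 23.2, 21.8 and 20.2 FPKM and non-CSC libraries 39.6, 36.0 and 34.5 FPKM. Neither line had overlapping fractions, but their order was opposite: CSC was the higher one in SUM149PT and the lower one in HCC1937. The log2 fold change was 0.86 ± 0.06 (SE) in SUM149PT (limma adjusted p 7.75e-05) and -0.75 ± 0.09 in HCC1937 (limma adjusted p 0.00272). SUM159PT held 17.8, 18.4 and 17.4 FPKM, below every sorted library.

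DUSP1 encodes a nuclear phosphatase that acts on the stress kinases p38 and JNK as well as on ERK, and it is an immediate early gene. It lies at chr5:172768090-172771195 on the minus strand, next to the promoter stretch with the full response element printed above. Its 3 libraries read 210.3, 219.7 and 210.3 FPKM in SUM149PT CSC and 242, 227 and 249 FPKM in non-CSC. In HCC1937 they read 96.4, 86.9 and 83.6 FPKM in CSC and 84.8, 86.3 and 73.9 FPKM in non-CSC, and in SUM159PT 138, 137 and 125 FPKM. DUSP1 was the most abundant of the 10 in every group, and between 98.1% and 99.5% of all genes had a lower mean. The SUM149PT fractions did not overlap and the HCC1937 fractions did. In SUM149PT the log2 fold change of -0.16 ± 0.06 (SE) passed narrowly (limma adjusted p 0.0493). It no longer passed without CSC replicate 1 (0.124), 2 (0.0671) or 3 (0.139) or without non-CSC replicate 1 (0.111) or 3 (0.123), these being limma adjusted p. It also missed with no expression minimum (0.0655), a replicate block (0.124) or a fit over 15 libraries (0.0805) and under upper quartile scaling (0.285) and rescaling to equal sums (0.129), and its sign turned when a trend with GC content (0.04) or length (0.07) was removed, alternatives chosen after the data were seen. Over all alternatives its limma adjusted p ran from 0.0275 to 0.555. In HCC1937 the value was 0.12 ± 0.10 (limma adjusted p 0.41), and over the alternatives the limma adjusted p ran from 0.0345, with the length trend removed, to 0.721.

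DUSP4 encodes an inducible nuclear phosphatase for ERK and JNK and is on chromosome 8, at 29333064 to 29350668 on the minus strand. It read 8.84, 9.17 and 8.88 FPKM in SUM149PT CSC and 51.1, 50.4 and 46.4 FPKM in non-CSC. It read 15.8, 15.2 and 15.8 FPKM in HCC1937 CSC, 11.8, 12.5 and 12.9 FPKM in non-CSC, and 2.33, 2.29 and 2.27 FPKM in SUM159PT. The SUM149PT non-CSC libraries thus stood above every other library by a wide margin. This was the widest gap between fractions among the 10 genes, with the non-CSC mean 5.50-fold the CSC mean (log2 fold change -2.45 ± 0.06 SE, limma adjusted p 2.67e-06), and 7.16% of all genes had a lower value. In HCC1937 the CSC libraries were the higher ones, without overlap, at a log2 fold change of 0.33 ± 0.07 (limma adjusted p 0.0183). That difference did not pass without non-CSC replicate 1 (0.0668) or 2 (0.0643) or without CSC replicate 2 (0.0515) or 3 (0.0595), nor with a replicate block (0.0619), these being limma adjusted p, which ran from 0.00082 to 0.0668 over all alternatives.

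The Sprouty proteins are membrane-associated adaptors that dampen receptor tyrosine kinase signalling to ERK; SPRY2 binds the adaptor GRB2 and the ubiquitin ligase CBL. The SPRY2 gene is at chr13:80335976-80340951 on the minus strand. It measured 16.2, 15.1 and 15.7 FPKM in SUM149PT CSC and 5.74, 5.22 and 4.97 FPKM in non-CSC. In HCC1937 it measured 22.0, 19.2 and 19.9 FPKM in CSC and 11.2, 10.5 and 9.44 FPKM in non-CSC, and in SUM159PT 4.85, 4.97 and 4.40 FPKM. Both CSC groups lay above both non-CSC groups, without overlap. The log2 fold change was 1.54 ± 0.07 (SE) in SUM149PT (limma adjusted p 1.54e-05) and 0.97 ± 0.10 in HCC1937 (limma adjusted p 0.00156), where 96.0% of all genes had a lower one.

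SPRY4, at chr5:142310427-142326455 on the minus strand, measured 25.0, 25.2 and 24.8 FPKM in SUM149PT CSC and 9.95, 10.2 and 10.01 FPKM in non-CSC. It measured 9.87, 9.98 and 8.79 FPKM in HCC1937 CSC, 5.80, 5.28 and 6.22 FPKM in non-CSC, and 3.17, 3.88 and 3.49 FPKM in SUM159PT. CSC was the higher fraction in both lines, and the HCC1937 CSC level was that of SUM149PT non-CSC. The log2 fold change was 1.31 ± 0.05 (SE) in SUM149PT (limma adjusted p 6.95e-06) and 0.72 ± 0.09 in HCC1937 (limma adjusted p 0.00385).

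SPRY1, at chr4:123396795-123403760 on the plus strand, was the least abundant of the 10 genes in every group. Its libraries held 2.02, 2.47 and 2.26 FPKM in SUM149PT CSC and 1.44, 1.84 and 1.23 FPKM in non-CSC. They held 0.239, 0.374 and 0.172 FPKM in HCC1937 CSC, 0.973, 0.857 and 0.693 FPKM in non-CSC, and 0.478, 0.630 and 0.501 FPKM in SUM159PT. Neither line had overlapping fractions, and CSC was higher in SUM149PT and lower in HCC1937. In SUM149PT the log2 fold change was 0.57 ± 0.16 (SE, limma adjusted p 0.0181), which did not pass without non-CSC replicate 1 (0.0554) or without CSC replicate 2 (0.059) or 3 (0.0509). Over all alternatives the value ran from 0.38 to 0.91 and the limma adjusted p from 0.00272 to 0.059. In HCC1937 it was -1.41 ± 0.23 (limma adjusted p 0.00842), with 4.23% of all genes lower; adding 0.01 or 1 FPKM in place of 0.1 gave -1.70 and -0.55, the ends of its range over the alternatives. The 3 Sprouty genes together summed to 42.9 ± 0.297 FPKM (SD, n = 3) in SUM149PT CSC against 16.9 ± 0.562 FPKM in non-CSC. In HCC1937 the sums were 30.2 ± 1.71 and 17.0 ± 0.899 FPKM, so the non-CSC groups of the lines were alike in this sum, and in SUM159PT the sum was 8.79 ± 0.597 FPKM.

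SPRED1, at chr15:38252326-38357249 on the plus strand, brings the RAS inhibitor neurofibromin to the membrane. It measured 12.3, 11.4 and 11.1 FPKM in SUM149PT CSC and 12.6, 12.2 and 11.03 FPKM in non-CSC. It measured 5.42, 5.93 and 6.20 FPKM in HCC1937 CSC, 3.43, 3.67 and 3.72 FPKM in non-CSC, and 1.03, 1.07 and 1.41 FPKM in SUM159PT. The fractions overlapped in SUM149PT and not in HCC1937. The SUM149PT log2 fold change of -0.04 ± 0.08 (SE, limma adjusted p 0.68) turned positive under upper quartile scaling (0.05), quantile normalization (0.04) and rescaling to equal sums (0.01), and it was 0.0007 without non-CSC replicate 1. In HCC1937 CSC was higher by 0.68 ± 0.08 on the log2 scale (limma adjusted p 0.00254).

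ETV4 encodes a PEA3 family ETS factor that acts downstream of ERK as an activator, so it reports pathway output without being an inhibitor. Its gene is at chr17:43527844-43579620 on the minus strand and shares 68 exon bases with DHX8 on the opposite strand. Levels were 14.3, 16.3 and 15.1 FPKM in SUM149PT CSC and 10.7, 12.1 and 11.2 FPKM in non-CSC. They were 12.5, 12.5 and 11.4 FPKM in HCC1937 CSC, 16.7, 16.8 and 15.7 FPKM in non-CSC, and 36.3, 34.1 and 41.6 FPKM in SUM159PT. Neither line had overlapping fractions, and the fractions stood in opposite order. The log2 fold change was 0.42 ± 0.08 (SE) in SUM149PT (limma adjusted p 0.00416), up to 0.75 with a GC trend removed, and -0.43 ± 0.07 in HCC1937 (limma adjusted p 0.00955). SUM159PT held the highest level of any group.

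Counted together, 7 of the 10 genes were higher in SUM149PT CSC than in non-CSC, where 33.3% of the 16037 genes tested were higher, and 2 (DUSP1 and DUSP4) were lower, where 41.5% were. At stricter limits (adjusted p up to 0.0001 and log2 fold change of 1 or more in either direction, the latter a reading made here of the study's score limit), 4 passed in SUM149PT, DUSP4, DUSP6, SPRY2 and SPRY4, against 20.5% of all genes. In HCC1937, 5 of the 10 were higher and 3 (DUSP5, SPRY1 and ETV4) were lower, against 10.3% and 15.3% of the 15582 genes tested. None passed the stricter limits there by limma (0), nor did any other gene (0.00%), although 5886 genes reached an unadjusted p of 0.05. CD24 and CDH1 lay just above the limit there, at a limma adjusted p of 0.000128 each. The study itself reported genes that differed between the fractions of HCC1937, more of them than in SUM149PT. The 0 therefore holds only for the fit and limits used here. The median log2 fold change of the 10 was 0.69 in SUM149PT, where that of all genes was -0.11, and 0.23 in HCC1937, where that of all genes was -0.03. Quantile normalization moved the median of all genes in SUM149PT to 0.10 and raised the share of passing genes that were higher in CSC from 44.6% to 54.9%. In HCC1937 rescaling to equal sums moved it to 0.09 and raised that share from 40.3% to 54.3%, and quantile normalization raised it to 53.0%. With single libraries left out the 7 fell to 6, through SPRY1, and the 5 to 4, through DUSP4. The 2 lower in SUM149PT fell to 1, through DUSP1, with single libraries left out and also under upper quartile scaling and rescaling to equal sums. None of the 3 scalings changed the direction of a passing difference among the 10 genes within a line.

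DUSP6, SPRY2 and SPRY4 were higher in CSC of both lines, 3 of the 10, where 856 of the 14423 genes tested in both lines were (5.93%). None of the 10 was lower in both (0), as 1459 genes were (10.1%). DUSP4, DUSP5, SPRY1 and ETV4 passed in both lines with opposite signs, 4 of the 10, where 842 genes did (5.84%), but DUSP4 in HCC1937 and SPRY1 in SUM149PT did not pass in every alternative. The remaining 3, DUSP1, DUSP7 and SPRED1, passed in a single line. The pattern was therefore divided within families: of the phosphatases DUSP6 kept its direction in both lines and DUSP4 and DUSP5 did not, and of the Sprouty genes SPRY2 and SPRY4 kept theirs and SPRY1 did not.

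**Figure D2:**
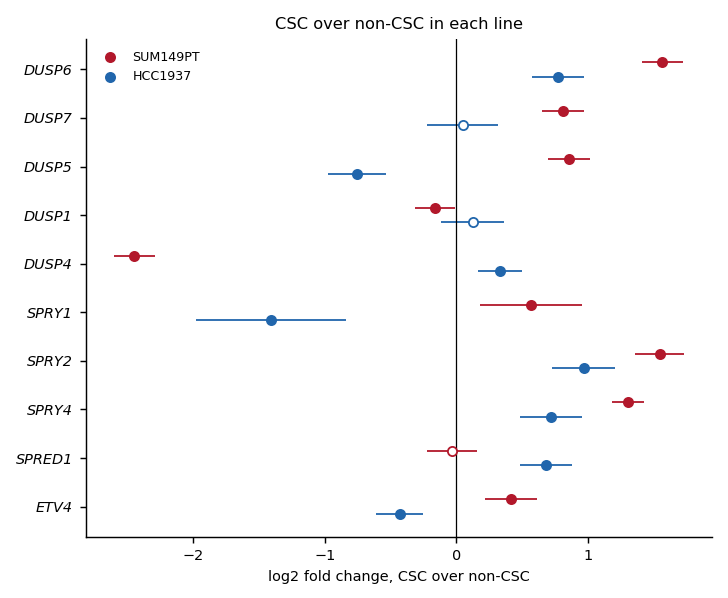
Log2 fold change of the 10 genes, CSC over non-CSC, in SUM149PT and HCC1937 (points) with 95% confidence intervals from limma (lines); filled points passed an adjusted p of 0.05. DUSP6, SPRY2 and SPRY4 lie to the right of 0 in both lines, and DUSP4, DUSP5, SPRY1 and ETV4 lie on opposite sides.

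The difference between the lines in the CSC effect was tested with an interaction term over the 12 sorted libraries. All 10 genes passed, 7 with the larger value in SUM149PT and 3 with the larger value in HCC1937 (DUSP1, DUSP4 and SPRED1), against 28.1% and 33.0% of the 16451 genes tested. DUSP4 had the widest difference (-2.77 ± 0.08 SE on the log2 scale, limma adjusted p 8.98e-09), followed by SPRY1 (1.98 ± 0.30, limma adjusted p 0.000248) and DUSP5 (1.61 ± 0.11, limma adjusted p 8.6e-07), though with a pseudocount of 1 SPRY1 (0.93) came after DUSP5 (1.57). The genes that rose in both lines also differed, rising further in SUM149PT: by 0.80 for DUSP6, 0.58 for SPRY2 and 0.59 for SPRY4. DUSP1 passed narrowly (-0.29 ± 0.11, limma adjusted p 0.0452). It missed without any 1 of SUM149PT CSC replicates 1 (0.0849), 2 (0.0571) and 3 (0.0869), SUM149PT non-CSC replicates 1 (0.0809) and 3 (0.0942), HCC1937 CSC replicates 1 (0.0917) and 2 (0.0607) and HCC1937 non-CSC replicate 3 (0.0923). It also missed with no expression minimum (0.0572), under upper quartile scaling (0.0538), with a replicate block (0.0528) and with a GC (0.238) or length (0.289) trend removed, these being limma adjusted p, which ran from 0.00241 to 0.289 over all alternatives. The median of all genes was -0.08 and moved to 0.06 under quantile normalization.

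Between the sorted lines, all but 1 of the 10 genes differed in CSC: 2 were higher in HCC1937 and 7 lower, where 45.1% and 31.8% of the 16373 genes tested were. The higher ones were DUSP4 (log2 fold change 0.79 ± 0.06 SE) and SPRY2 (0.38 ± 0.09). The lower ones ran from ETV4 (-0.32 ± 0.09) to SPRY1 (-2.73 ± 0.20), with DUSP1 at -1.26, DUSP5 at -1.78, DUSP7 at -1.15, SPRY4 at -1.38 and SPRED1 at -0.98. DUSP6 was the 1 that did not pass (-0.13 ± 0.08, limma adjusted p 0.171). It passed as lower under upper quartile scaling (-0.30), quantile normalization (-0.34) and rescaling to equal sums (-0.21), while the median of all genes moved from 0.22 to 0.06, 0.05 and 0.14. It also passed as lower with a GC trend (-0.32) or a length trend (-0.29) removed. The value of SPRY1 shrank to -1.37 with a pseudocount of 1 and that of ETV4 grew to -0.68 with a length trend removed. SPRY2 no longer passed when a GC trend (0.17) or a length trend (0.06) was removed.

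In non-CSC, 3 genes were higher in HCC1937, namely DUSP6 (0.66 ± 0.08 SE), SPRY2 (0.95 ± 0.09) and ETV4 (0.53 ± 0.09), and 7 were lower, where 41.4% and 35.4% of all genes were. DUSP4 had the largest difference (-1.98 ± 0.06, limma adjusted p 1.54e-11), so DUSP4 was higher in HCC1937 among CSC and lower among non-CSC. ETV4 came down to 0.34 with a length trend removed. DUSP5 was lower by a margin that barely passed (-0.17 ± 0.07, limma adjusted p 0.0493), with overlapping libraries. It missed without SUM149PT non-CSC replicate 1 (0.17) or 2 (0.0858), without HCC1937 non-CSC replicate 2 (0.116) or 3 (0.171), with no expression minimum (0.0563), and with the SUM159PT libraries left out of the fit (0.0617), these being limma adjusted p, which ran from 5.68e-05 to 0.171 over all alternatives. Leaving them out changed no other call of either comparison between the sorted lines. The median of all genes was 0.09 and moved to -0.02 under upper quartile scaling and -0.07 under rescaling to equal sums.

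SUM159PT was set against each sorted CSC group; the comparisons share the SUM159PT libraries and inherit their differences in GC content, length and total. Against SUM149PT CSC, 1 of the 10 genes was higher (ETV4) and 9 were lower, where 28.3% and 53.3% of all genes were. Against HCC1937 CSC, 4 were higher (DUSP1, DUSP7, SPRY1 and ETV4) and 6 were lower, where 27.6% and 57.2% were. The median of all genes was itself -0.60 and -0.85, and the scaling moved it: to 0.00 and 0.01 with upper quartile scaling, 0.06 and 0.02 with quantile normalization, and -1.44 and -1.64 with rescaling to equal sums. The share of passing genes that were higher in SUM159PT went from 34.7% to 50.5%, 50.6% and 16.9% against SUM149PT CSC, and from 32.5% to 50.9%, 50.1% and 17.0% against HCC1937 CSC.

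DUSP6 was at the low end of all genes in both comparisons, 37.4-fold below SUM149PT CSC (log2 fold change -5.12 ± 0.08 SE, limma adjusted p 4.25e-14) and 34.2-fold below HCC1937 CSC (-4.99 ± 0.08, limma adjusted p 2.96e-14). Only 1.03% and 2.52% of all genes had a lower value. Over the alternatives its log2 fold change ran from -6.25 to -3.87 and from -6.03 to -3.58. DUSP4 (-1.92 and -2.71) and SPRY2 (-1.70 and -2.08) were also lower than in either CSC group in every alternative, though by widely varying amounts. DUSP4 ran from -3.02 to -0.34 and from -3.73 to -1.07, and SPRY2 from -2.80 to -0.75 and from -3.09 to -0.96. SPRY4 (-2.80 and -1.42) and SPRED1 (-3.22 and -2.24) were lower in both comparisons, but against HCC1937 CSC SPRY4 turned to 0.19 with a length trend removed and SPRED1 to 0.45 with a GC trend removed. Against SUM149PT CSC SPRY4 came as near to 0 as -1.27 and SPRED1 as -0.65. ETV4 was higher in both (1.29 and 1.61), and against SUM149PT CSC it fell short of the threshold after rescaling to equal sums (0.20, limma adjusted p 0.06, against 3.87e-11 at the lowest over the alternatives). Of the 10 transcripts, ETV4 has the highest GC content (60.8%) and SPRED1 the lowest (38.9%). With the GC trend removed ETV4 was still higher (0.62 and 1.29) and DUSP6 still lower (-4.02 and -3.69).

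The other 4 genes had values nearer 0 in at least 1 of the comparisons, where a scaling that shifts all genes the same way can turn the sign or end a call. DUSP1 was lower than in SUM149PT CSC (-0.68 ± 0.08 SE), but higher by 0.28 under upper quartile scaling, and higher than in HCC1937 CSC (0.58 ± 0.08), but lower (-0.42) after rescaling to equal sums. DUSP7 was lower than in SUM149PT CSC (-0.59 ± 0.08), but higher under upper quartile scaling (0.37) and with a length trend removed (0.16), and higher than in HCC1937 CSC (0.56 ± 0.08), but lower (-0.44) after rescaling to equal sums. DUSP5 was lower than in SUM149PT CSC in every alternative (-2.06 ± 0.07, at the least -1.10), and lower than in HCC1937 CSC (-0.28 ± 0.07), but higher there under upper quartile scaling (0.85) and with a length trend removed (0.37). Under quantile normalization DUSP1 and DUSP5 missed the threshold against HCC1937 CSC (limma adjusted p 0.594 and 0.451). SPRY1 was lower than in SUM149PT CSC (-1.89 ± 0.20) and higher than in HCC1937 CSC (0.85 ± 0.20), but missed the threshold in the former under quantile normalization (-0.31) and with a GC trend removed (-0.38) and in the latter after rescaling to equal sums (0.08). Against HCC1937 CSC SPRED1 (-2.24) turned with a GC trend removed, while SPRY2 (-2.08) did not turn in any alternative. The reason was not tested.

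**Figure D3:**
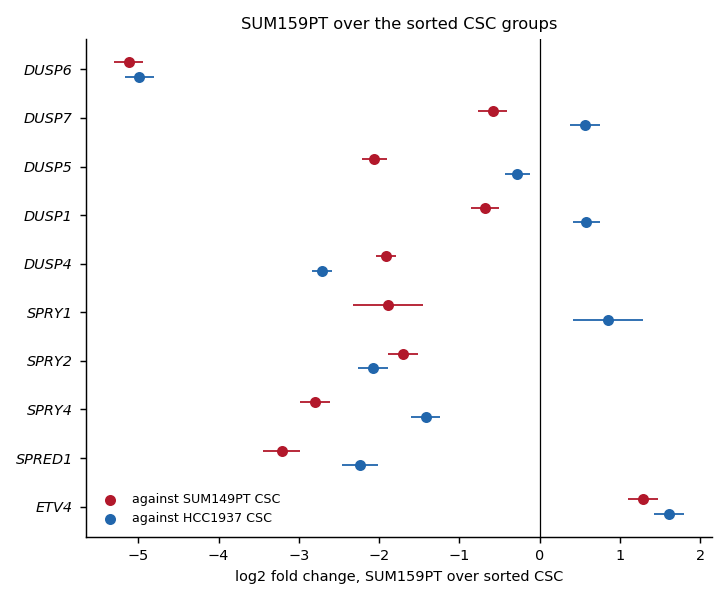
Log2 fold change of the 10 genes, SUM159PT over SUM149PT CSC and over HCC1937 CSC (points), with 95% confidence intervals from limma (lines). DUSP6 lies farthest to the left, at -5.12 and -4.99, and ETV4 is to the right of 0 in both comparisons; DUSP1, DUSP5 and DUSP7 change sides under other scalings of the libraries.

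Ranked by mean level over the 5 groups, 5 of the 10 genes were highest in SUM149PT CSC (18.5% of all genes were), 3 in SUM149PT non-CSC (23.6%), 1 in HCC1937 CSC (17.0%) and 1 in SUM159PT (20.5%). In SUM159PT 6 were lowest, as 51.3% of all genes were. Places of SUM159PT depend on the scaling: under upper quartile scaling, applied to the order after the data were seen, only DUSP4, DUSP6 and SPRED1 were lowest there (3, with 38.1% of all genes), and DUSP1, DUSP7 and ETV4 were highest there (3, with 35.7%). The orders below are those of the FPKM as deposited. DUSP6 ran from SUM149PT CSC (45.3 ± 0.715 FPKM, SD, n = 3) through HCC1937 CSC (41.4 ± 2.51), HCC1937 non-CSC (24.3 ± 1.29) and SUM149PT non-CSC (15.3 ± 0.833) to SUM159PT (1.21 ± 0.138). SPRY2 kept the same grouping, with HCC1937 CSC (20.4 ± 1.46 FPKM) ahead of SUM149PT CSC (15.7 ± 0.593), then HCC1937 non-CSC (10.4 ± 0.905), SUM149PT non-CSC (5.31 ± 0.391) and SUM159PT (4.74 ± 0.297). No neighbours overlapped in either order. SPRY1 likewise had no overlapping neighbours and ran from SUM149PT CSC (2.25 ± 0.222 FPKM) through SUM149PT non-CSC, HCC1937 non-CSC and SUM159PT to HCC1937 CSC (0.261 ± 0.103).

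For DUSP1 the order was SUM149PT non-CSC (239 ± 10.98 FPKM, SD, n = 3), SUM149PT CSC (213 ± 5.43), SUM159PT (133 ± 7.27), HCC1937 CSC (89.0 ± 6.67) and HCC1937 non-CSC (81.7 ± 6.75), with only the last pair overlapping. DUSP7 went from SUM149PT CSC (28.2 ± 1.48 FPKM) to SUM159PT, SUM149PT non-CSC and the HCC1937 fractions, CSC then non-CSC (12.2 ± 0.811), and again only the last pair overlapped. DUSP4 went from SUM149PT non-CSC (49.3 ± 2.53 FPKM) to HCC1937 CSC, HCC1937 non-CSC, SUM149PT CSC and SUM159PT (2.30 ± 0.0312) with no overlap. The phosphatases therefore shared no single order.

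DUSP5 fell from SUM149PT CSC (74.8 ± 1.90 FPKM, SD, n = 3) to SUM149PT non-CSC, HCC1937 non-CSC, HCC1937 CSC and SUM159PT (17.9 ± 0.482), and the middle pair, SUM149PT non-CSC and HCC1937 non-CSC, overlapped. SPRY4 fell from SUM149PT CSC (25.0 ± 0.174 FPKM) to SUM149PT non-CSC, HCC1937 CSC, HCC1937 non-CSC and SUM159PT (3.52 ± 0.357), and SUM149PT non-CSC overlapped HCC1937 CSC. SPRED1 fell from the overlapping SUM149PT fractions, non-CSC (11.9 ± 0.794 FPKM) and CSC, to HCC1937 CSC, HCC1937 non-CSC and SUM159PT (1.17 ± 0.208). ETV4 fell from SUM159PT (37.3 ± 3.83 FPKM) to HCC1937 non-CSC and SUM149PT CSC, which overlapped, and then to HCC1937 CSC and SUM149PT non-CSC (11.4 ± 0.728), which overlapped too. In all, 7 of the 40 neighbouring pairs overlapped, where 41.1% of the pairs of all genes did.

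The span from highest to lowest group mean was widest for DUSP6 (37.4-fold), DUSP4 (21.5-fold) and SPRED1 (10.2-fold), each with SUM159PT lowest, and narrowest for DUSP7 (2.30-fold). Without SUM159PT the widest spans were those of SPRY1 (8.61-fold) and DUSP4 (5.50-fold), DUSP6 had 2.97-fold and the narrowest was that of ETV4 (1.44-fold). Summed over the 10 genes, the level was 440.3 ± 9.53 FPKM (SD, n = 3) in SUM149PT CSC and 401 ± 9.71 FPKM in non-CSC. It was 229 ± 13.8 FPKM in HCC1937 CSC, 204 ± 9.31 FPKM in non-CSC and 221 ± 4.22 FPKM in SUM159PT. DUSP1 is the most abundant gene of the sum in each group.

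Other genes of the pathway were taken from lists and are given by counts and log2 fold changes. Of all genes tested, 33.3% were higher and 41.5% lower in SUM149PT CSC, and 10.3% and 15.3% in HCC1937 CSC, and the counts of each list stand beside these shares without a test; none of those named changed direction under upper quartile scaling, quantile normalization or rescaling to equal sums. Of 14 other feedback genes 13 were tested (SPRY3 is listed at 0 in every library), and in SUM149PT 5 were higher in CSC and 5 lower, with a median log2 fold change of 0.06. The extremes were DUSP2 (2.68), ETV1 (2.42) and ETV5 (1.06), the last a close relative of ETV4, and DUSP9 (-3.48), DUSP16 (-2.50) and IL17RD (-2.30). IL17RD averaged only 0.069 FPKM in CSC and 0.720 FPKM in non-CSC, so the added 0.1 FPKM understates its fold change. In HCC1937, 3 were higher, ETV1 (1.22), LRIG1 (1.05) and ETV5 (0.44), and 2 lower, ERRFI1 (-0.77) and DUSP9 (-0.59), with a median of -0.10 (0.02 after rescaling to equal sums). ETV1 and ETV5 were thus higher in CSC of both lines, while ETV4 was higher in 1 and lower in the other. The median of the 10 genes, 0.69 and 0.23, was above that of this list in both lines.

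Of 19 genes of ERK output, 11 were higher and 6 lower in SUM149PT CSC (median 0.44), led by EGR2 (2.32), MYC (1.72) and EPHA4 (1.56) and by LIF (-1.95), FOSL1 (-0.72) and IER2 (-0.46). In HCC1937 3 were higher, EPHA4 (0.60), JUN (0.57) and FOSL1 (0.49), and 6 lower, led by EGR2 (-1.30), LIF (-0.76) and FOSB (-0.62), with a median of -0.24. The 10 genes and this list thus had medians of opposite sign in HCC1937. EGR2 averaged below 1 FPKM in both HCC1937 groups, and IER3, with group means below 1 FPKM and libraries far apart, passed in neither line.

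Of 21 genes of the cascade itself 20 were tested (HRAS is listed at 0 in every library). In SUM149PT 11 were higher and 6 lower (median 0.28), with KSR1 (1.29), RASA1 (1.23) and NF1 (0.93), the gene for the partner of SPRED1, at the top and SOS2 (-1.67), MAPK3 (-1.07) and RPS6KA1 (-0.87) at the bottom. In HCC1937 2 were higher, SHC1 (0.54) and NRAS (0.27), and 4 lower, led by MAP2K1 (-0.78), RPS6KA1 (-0.68) and KSR1 (-0.58), with a median of -0.10 (0.02 after rescaling to equal sums).

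Upstream receptors and ligands numbered 18. In SUM149PT 17 were tested, 11 higher and 5 lower (median 1.13), with PDGFRB (3.10), FGF2 (2.61) and EREG (2.13) highest and ERBB3 (-3.70), FGFR4 (-3.50) and FGFR2 (-1.50) lowest. FGFR2 averaged only 0.011 FPKM in SUM149PT CSC and 0.217 FPKM in non-CSC, so the added 0.1 FPKM understates its fold change. In HCC1937 16 were tested, 7 higher and 7 lower (median 0.11), with EREG (1.55), FGF2 (1.33) and AXL (1.15) highest and AREG (-1.51), FGFR2 (-1.37) and ERBB3 (-1.19) lowest. EREG and FGF2 were among several upstream genes, receptors included, that were higher in CSC of both lines, as DUSP6, SPRY2 and SPRY4 were. ERBB3 and FGFR2 were among several that were lower in both. A link between the upstream genes and DUSP6, SPRY2 and SPRY4 was not tested.

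DUSP1 and DUSP4 also answer to stress, so 12 genes of the stress and dissociation response stand beside them. In SUM149PT 3 were higher in CSC, GADD45B (1.53), KLF6 (0.83) and DDIT3 (0.61), and 8 lower, led by HSPA1A (-4.01), NR4A1 (-2.60) and HSPA1B (-2.14), with a median of -1.19. Their sum was 1462, 1595 and 1448 FPKM in the CSC libraries and 3383, 3280.4 and 3184 FPKM in the non-CSC libraries, with HSPB1 the most abundant. In HCC1937 1 was higher, HSPH1 (0.43), and 3 lower, ZFP36 (-0.64), ATF3 (-0.47) and DNAJB1 (-0.39), with a median of -0.14; sums were 1176, 993 and 951 FPKM in CSC and 1350.02, 1422 and 1205 FPKM in non-CSC. In SUM159PT the sum was 919, 901 and 877 FPKM. The part of a stress response in the levels of DUSP1 and DUSP4 was not tested.

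**Figure D4:**
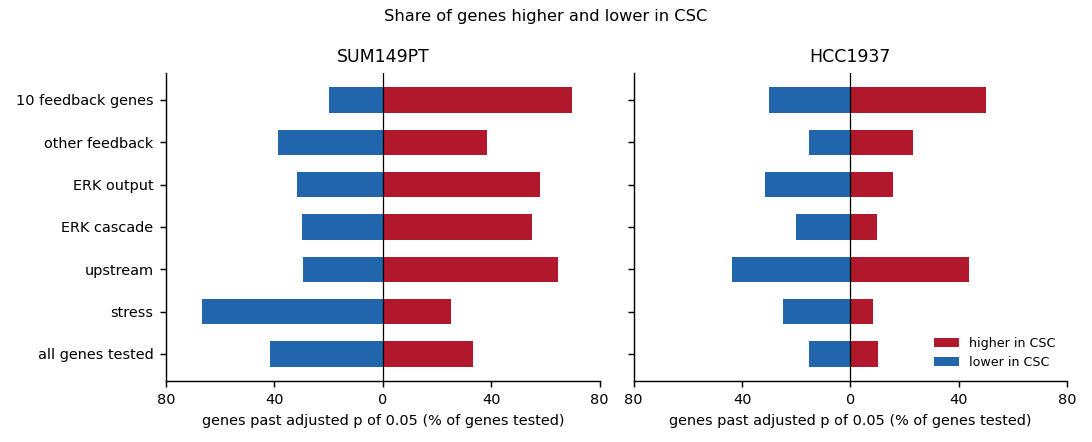
Share of genes tested that were higher (right) or lower (left) in CSC at an adjusted p of 0.05, for the 10 feedback genes, the 5 other lists and all genes, in SUM149PT and HCC1937. Of the 10 genes 7 and 5 were higher in CSC, and of the upstream genes 11 of 17 and 7 of 16; differences between lists were not tested, and the 10 genes were chosen with earlier results of these data known.

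The fractions also differ in cell state markers. All 8 epithelial markers were lower in CSC of both lines (median -4.22 in SUM149PT and -1.86 in HCC1937), and all 6 mesenchymal markers were higher (2.83 and 1.95). In SUM149PT the epithelial sum was 131, 135 and 133 FPKM in CSC and 1856, 1810.2 and 1831 FPKM in non-CSC, with KRT19 the most abundant gene, and VIM averaged 2089.9 against 244 FPKM. In HCC1937 the epithelial sum was 646, 600.3 and 544 FPKM in CSC (KRT8 the most abundant) and 1671, 1687 and 1457 FPKM in non-CSC (KRT18), and VIM averaged 917 against 156 FPKM. In SUM159PT the epithelial sum was 293, 277 and 292 FPKM carried by KRT18 (153 FPKM) and KRT8 (132 FPKM), while the other 6 markers had means below those of every sorted group, KRT19 not so under upper quartile scaling. Of the mesenchymal markers ZEB1 (0.204 FPKM) and ZEB2 (0.158 FPKM) were below every sorted group under that scaling too. CDH2 (2.86 FPKM) was so as deposited but not under upper quartile scaling. VIM (1078 FPKM), FN1 (158 FPKM) and SPARC (55.4 FPKM) had their lowest means in HCC1937 non-CSC under either scaling. With upper quartile scaling VIM (1970) and FN1 (289) were highest in SUM159PT, though close to SUM149PT CSC (1960 and 270). DUSP6, SPRY2 and SPRY4 were higher in CSC together with the mesenchymal markers in both sorted lines. In SUM159PT DUSP6 was lowest under either scaling, as ZEB1 and ZEB2 were, whereas VIM, FN1 and SPARC were lowest there under neither. SPRY2 and SPRY4, like CDH2, were lowest there in the FPKM as deposited but not under upper quartile scaling. The part of cell state in the levels of DUSP6, SPRY2 and SPRY4 was not tested.

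Of 8 genes that mark other cell types, PTPRC and ALB stayed below 0.1 FPKM in every group mean and CD3E was listed at 0 throughout. COL1A1, a fibroblast marker that mesenchymal cancer cells also express, was the most abundant of them in SUM149PT (216 FPKM in CSC and 49.0 FPKM in non-CSC), and CD68 in HCC1937 (42.3 and 39.99 FPKM) and SUM159PT (31.9 FPKM). In SUM149PT 5 of the 8 were tested, of which PDGFRA (3.11) and COL1A1 (2.14) were higher in CSC and CDH5 (-2.70), CD68 (-1.57) and PECAM1 (-1.20) lower. Levels of CDH5 (0.0124 FPKM in CSC, 0.630 FPKM in non-CSC) and PECAM1 (0.108 and 0.378 FPKM) were low. In HCC1937 4 were tested, of which COL1A1 (0.71) was higher and CDH5 (-1.28) lower, the latter at 0.0706 FPKM in CSC and 0.301 FPKM in non-CSC. The 8 summed to 238, 240.1 and 234 FPKM in SUM149PT CSC, 95.5, 98.1 and 103 FPKM in non-CSC, 51.4 to 56.1 FPKM in HCC1937 CSC, 47.3 to 48.2 FPKM in non-CSC and 50.9 to 55.2 FPKM in SUM159PT. Their part in the levels of the 10 genes was not tested.

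Genes with the most similar pattern were sought for 1 member of each family, by Pearson correlation of log2(FPKM + 0.1) over the 15 libraries, among the 12154 genes averaging 1 FPKM or more. For DUSP6 they were PIP4K2A (r 0.997), CCP110 (0.996) and ATP2B1 (0.993), and 966 genes reached 0.95. For SPRY4 they were DACT1 (0.989), ADAM19 (0.985) and ETS1 (0.984), with 69 genes at 0.95 or above. ETV4 had SELO (0.986), KLHDC8B (0.986) and CTSD (0.985), with 153. The 3 genes named for DUSP6 share its low level in SUM159PT: PIP4K2A, for example, averaged 11.7, 6.42, 10.3 and 8.05 FPKM in SUM149PT CSC and non-CSC and HCC1937 CSC and non-CSC and was lower still in SUM159PT. Over the 12 sorted libraries alone the same genes correlated at 0.969, 0.973 and 0.951 with DUSP6, 0.992, 0.972 and 0.992 with SPRY4, and 0.905, 0.922 and 0.901 with ETV4. The libraries of a group share their cells, so these values describe likeness and carry no p.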

How the data were processed

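RNA of 15 libraries (5 groups of 3) was sequenced by the authors, who deposited FPKM values per gene. Their processing notes name Bowtie2 and the GRCh38 build; the quantifier and annotation are not given in the sources used here, nor are counts, so depth is unknown. The 10 genes were taken by symbol. FPKM were converted to log2(FPKM + 0.1), genes averaging under 0.1 FPKM were left out, and limma 3.58.1 in R 4.3.3 was fitted with group means and eBayes: 6 libraries for each line, 12 for the difference between lines, 15 for comparisons between lines. The p-values were adjusted over all genes tested by the Benjamini-Hochberg method. The fit was tested on simulated data. Alternatives were other pseudocounts, expression minimums, scalings, a variance trend, stricter limits, leaving out each library, a replicate block and a fit over 15 libraries. GC and length trends (lowess span 0.3), leaving out SUM159PT, likeness over 12 libraries and upper quartile scaling of group orders were chosen after seeing the data. Positions, GC content and exon overlaps are from GENCODE 29, where 24442 of 33158 symbols matched, and promoters from RefSeq. Tables and plots used Python 3.11.15, pandas 2.3.3, numpy 2.4.6 and matplotlib 3.10.9. The 10 genes and the lists were chosen with earlier results of these data known. All 10 are named, and from each list up to 3 genes at either end of the log2 fold changes that passed in a sorted line without overlap of its libraries. Likeness is given for DUSP6, SPRY4 and ETV4.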

Additional observations from a re-analysis of the deposited data

Results flagged for a closer look

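For each of the 10 genes the difference between CSC and non-CSC was not the same in SUM149PT and HCC1937 by the interaction test in limma, although DUSP1 passed only narrowly and missed in 13 of 23 alternatives. The SUM149PT value minus the HCC1937 value, on the log2 scale, was -0.29 ± 0.11 (SE) for DUSP1, -2.77 ± 0.08 for DUSP4, 1.61 ± 0.11 for DUSP5, 0.80 ± 0.09 for DUSP6 and 0.76 ± 0.12 for DUSP7. It was 1.98 ± 0.30 for SPRY1, 0.58 ± 0.12 for SPRY2, 0.59 ± 0.10 for SPRY4, -0.72 ± 0.11 for SPRED1 and 0.85 ± 0.10 for ETV4. The limma adjusted p ran from 8.98e-09 for DUSP4 to 0.0452 for DUSP1, for which it ran from 0.00241 to 0.289 over the alternatives. Of all 16451 genes tested, 28.1% and 33.0% also differed, in favour of SUM149PT and of HCC1937. Lines and sorts cannot be told apart here, since each line was sorted on its own, and a cause was not tested.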

How the results depend on the processing

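Results for single genes kept their direction and their side of the threshold in most alternatives, 171 in SUM149PT, 176 in HCC1937, 222 for the difference between lines, 185 and 180 between the sorted lines (CSC, non-CSC), and 180 and 173 for SUM159PT against SUM149PT CSC and HCC1937 CSC; direction changed in 6, 2, 0, 0, 0, 3 and 6. SPRED1 in SUM149PT went from -0.04 to 0.0497 (upper quartile), 0.0404 (quantile) and 0.00617 (equal sums), and to between -0.0916 and 0.000704 with single libraries left out. DUSP1 there went to 0.0375 (GC trend) and 0.0749 (length trend), and DUSP7 in HCC1937 to between -0.0415 and 0.12 with single libraries left out. Against SUM149PT CSC, SUM159PT turned to 0.28 for DUSP1 and 0.37 for DUSP7 (upper quartile) and 0.16 for DUSP7 (length). Against HCC1937 CSC it turned to 0.85 for DUSP5 (upper quartile), -0.42 for DUSP1 and -0.44 for DUSP7 (equal sums), 0.45 for SPRED1 (GC), 0.37 for DUSP5 and 0.19 for SPRY4 (length). The causes were not tested. Stricter limits lowered the numbers of passing genes by construction. With an adjusted p of 0.0001 and a log2 fold change of 1 they were 4 in SUM149PT (20.5% of all genes), 0 in HCC1937 (0.00%; limma, with 5886 genes at an unadjusted p of 0.05), 2 for the difference between lines (17.8%), 5 and 3 between the sorted lines (37.3% and 36.2%), and 8 and 6 for SUM159PT against SUM149PT CSC and HCC1937 CSC (55.9% and 58.4%). At an adjusted p of 0.05 and a log2 fold change of 1 they were 4, 1, 3, 5, 3, 8 and 6, with 34.9%, 8.71%, 30.4%, 43.0%, 42.1%, 61.4% and 64.1% of all genes. Same-numbered libraries share only a number, so a pairing is not known; their deviations correlated at 0.136, 0.0287 and 0.12 in SUM149PT and -0.158, -0.0504 and -0.0355 in HCC1937. With a replicate block 8, 7 and 9 of the 10 genes passed in SUM149PT, in HCC1937 and for the difference between lines; DUSP1, DUSP4 and DUSP1 were the calls lost, and no other call among the 10 changed. SPRY1 could not be tested in HCC1937 at a minimum of 1 FPKM. The depth is unknown, so what it limits at levels such as those of SPRY1 cannot be given.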
